A study of Homo sapiens with 30 samples.

Results

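The hypoxia-inducible factor (HIF) pathway was followed here through 10 genes, HIF1A, ARNT, VHL, EGLN1, KDM3A, P4HA1, BNIP3, VEGFA, ADM and MXI1, in a pair of human B cell lines given low doses of radiation. Their probe sets were those whose platform annotation gives 1 of these symbols alone, current or former. This gave 16 probe sets of 22283 on the array, of which 19071 carried a single symbol. Of the 16 probe sets, 13 passed the filter on dim probe sets and were tested, with at least 1 for each of the 10 genes. RefSeq (GRCh38.p14) places HIF1A on chromosome 14, ARNT and EGLN1 on 1, VHL on 3, KDM3A on 2, P4HA1, BNIP3 and MXI1 on 10, VEGFA on 6 and ADM on 11. The probe sets ARNT 210828_s_at, ARNT 218222_x_at and VEGFA 211527_x_at, with median scaled signals of 1.47, 1.66 and 2.25, did not pass the filter.

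The lines GM15036 and GM15510 are established lymphoblastoid lines, B cells made to grow indefinitely with Epstein-Barr virus. Each was irradiated with caesium-137 at 1, 2.5, 5, 7.5 or 10 cGy, and 3 Affymetrix arrays were made for each of the 10 groups of line and dose, 30 arrays in all. The labels give the doses in cGy while the series text gives the same figures in Gy; the labels' unit is used. All groups were irradiated, so 1 cGy served as the baseline of its line and a response shared by every dose could not be seen. Each line stands for 1 genetic background, the sources used here do not give the interval between exposure and RNA extraction, and the arrays of a group are not said to come from separate cultures, so that the p-values measure the spread between arrays, which may be technical. The number of arrays limits the precision.

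In normal oxygen, prolyl hydroxylases such as EGLN1 mark the HIF1A protein, and VHL, the recognition part of a ubiquitin ligase, then sends it for destruction. When oxygen is scarce HIF1A protein persists, pairs with ARNT and binds a short core motif in DNA, raising the transcription of genes for glycolysis, collagen modification, mitochondrial turnover and blood vessel growth. Much of this control acts on HIF1A protein, which the arrays do not measure. In lymphoid cells the pathway is known for adapting metabolism to the poorly oxygenated parts of lymphoid tissue.

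At 10 cGy, 4 of the 13 tested member probe sets were lower than at 1 cGy in GM15036, where 11.7% of all tested probe sets passed the test and 7.35% passed as lower. They belong to HIF1A and to 3 genes known as its targets, the histone lysine demethylase KDM3A, the collagen prolyl hydroxylase subunit P4HA1 and the mitophagy protein BNIP3. The call of BNIP3 was lost under 4 of 13 other processing settings and without any 1 of 3 arrays. The 250 bases before the start are shown for these 4 genes and for ADM, a target that differed most between the lines among the members. Capitals mark matches to the HIF core motif, searched as ACGTG and GCGTG on both strands (CACGT and CACGC when read from the other strand), and overlapping matches run together. The sequences are RefSeq's for GRCh38.p14, written 5′ to 3′ on the strand of the gene, for HIF1A at chr14:61695263-61695512 on the plus strand, KDM3A at chr2:86441121-86441370 on the plus strand, P4HA1 at chr10:73096867-73097116 on the minus strand, BNIP3 at chr10:131981924-131982173 on the minus strand and ADM at chr11:10304823-10305072 on the plus strand.
HIF1A: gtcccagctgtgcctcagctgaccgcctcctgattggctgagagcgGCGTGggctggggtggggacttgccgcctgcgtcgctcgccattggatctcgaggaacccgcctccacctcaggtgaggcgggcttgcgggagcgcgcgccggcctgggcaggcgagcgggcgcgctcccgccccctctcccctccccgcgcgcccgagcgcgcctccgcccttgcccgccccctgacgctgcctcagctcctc
KDM3A: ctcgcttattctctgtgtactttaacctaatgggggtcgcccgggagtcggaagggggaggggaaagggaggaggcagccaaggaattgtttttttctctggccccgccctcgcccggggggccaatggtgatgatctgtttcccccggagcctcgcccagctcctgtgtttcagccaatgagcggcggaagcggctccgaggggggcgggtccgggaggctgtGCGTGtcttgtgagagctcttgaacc
P4HA1: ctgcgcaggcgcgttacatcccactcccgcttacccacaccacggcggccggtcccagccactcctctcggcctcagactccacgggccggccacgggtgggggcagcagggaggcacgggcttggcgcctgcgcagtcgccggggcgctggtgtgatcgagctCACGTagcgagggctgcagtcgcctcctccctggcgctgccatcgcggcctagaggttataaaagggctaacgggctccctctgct
BNIP3: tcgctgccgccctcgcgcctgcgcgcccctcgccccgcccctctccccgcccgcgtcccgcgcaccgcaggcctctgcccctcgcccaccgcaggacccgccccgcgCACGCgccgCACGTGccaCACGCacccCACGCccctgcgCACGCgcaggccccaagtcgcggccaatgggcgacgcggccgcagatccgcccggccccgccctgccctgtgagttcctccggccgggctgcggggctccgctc
ADM: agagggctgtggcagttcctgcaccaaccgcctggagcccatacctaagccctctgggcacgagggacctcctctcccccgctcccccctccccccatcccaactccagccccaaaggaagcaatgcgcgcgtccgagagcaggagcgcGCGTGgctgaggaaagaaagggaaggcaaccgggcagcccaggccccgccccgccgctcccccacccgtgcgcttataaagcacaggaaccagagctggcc

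BNIP3 carried 6 matches in this window, beginning between positions -143 and -104 from the gene start. P4HA1 had 1 match at -86, KDM3A 1 at -26, ADM 1 at -101 and HIF1A 1 at -204. The promoter table holds 8 of the 10 members in 12 windows of 300 bases, which run from 250 bases before to 50 after a start. Of these windows, 9 held a match, belonging to 7 members, and the single ARNT window held none. The KDM3A windows overlap, and the same match counts in both, at -26 and at -116. The KDM3A start used above lies inside the gene, which RefSeq begins at 86437044. Among all 35116 windows of the table, 48.4% held at least 1 of these motifs, so a match sets no gene apart. A match is a run of letters and not a shown binding site.

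Values are MAS5 signals scaled so that every array has the same trimmed mean, called scaled signal below. Differences are on the log2 scale after adding 4 to each scaled signal, which understates changes of dim probe sets. A probe set passed the test where limma's p, adjusted by the Benjamini-Hochberg method over all 13331 probe sets tested, was under 0.05. Mean array brightness, the trimmed mean before scaling, was 22.1 ± 10.4 at 10 cGy and 69.6 ± 10.2 at 1 cGy in GM15036 (SD, n = 3 each). The GM15510 arrays were dimmest at 2.5 cGy (18.7 ± 4.48) and at 5 cGy (39.0 ± 26.6), against 69.4 ± 10.5 for their 1 cGy arrays, and brightest at 10 cGy (89.1 ± 23.6). The log2 ratio of the 3-prime to the 5-prime ACTB control, a sign of RNA quality, was 5.20 ± 0.153 at 10 cGy and 4.48 ± 0.204 at 1 cGy in GM15036, and in GM15510 its group means ran from 3.75 to 5.16. Pearson's r between arrays of a group was 0.901 to 0.972, and no pair of arrays was identical. Arrays of the same line at other doses had much the same range, 0.908 to 0.966, and arrays of different lines had 0.857 to 0.945. All 9 B cell markers used lay above the filter, against 1 of 7 T and NK cell markers, 0 of 6 monocyte markers and 2 of 5 fibroblast markers.

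The transcript of HIF1A, the oxygen-regulated subunit (probe set 200989_at), moved in opposite directions in the lines. In GM15036 the scaled signals were 307, 358 and 316 at 1 cGy, 267, 308 and 293 at 2.5 cGy, 324, 338 and 286 at 5 cGy, 272, 207 and 233 at 7.5 cGy, and 230.1, 224 and 182 at 10 cGy. All 6 arrays at 7.5 and 10 cGy lay below all 3 at 1 cGy. In GM15510 they were 320.0, 314 and 336 at 1 cGy, 337, 415 and 444 at 2.5 cGy, 382, 386 and 402 at 5 cGy, 271, 314 and 356 at 7.5 cGy, and 439.8, 453 and 429 at 10 cGy. There every array at 2.5, 5 and 10 cGy was above the 1 cGy arrays, while those at 7.5 cGy overlapped them. Array signal averages over all cells of a culture, so fewer cells with the transcript and less transcript per cell cannot be told apart.

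HIF1A fell by 0.62 in log2 (SE 0.113, adjusted p = 0.000291) at 10 cGy in GM15036, where it averaged 212 ± 25.9 against 327 ± 27.6 at 1 cGy (SD, n = 3 each). At 7.5 cGy in that line it fell by 0.46 (adjusted p = 0.0161). In GM15510 it rose by 0.44 (adjusted p = 0.0133) at 10 cGy, to 441 ± 12.0 against 323 ± 11.8 at 1 cGy. The differences of 0.29 at 2.5 cGy (adjusted p = 0.105) and 0.27 at 5 cGy (adjusted p = 0.211) did not pass, and with unscaled arrays centred on their medians they were -0.46 (adjusted p = 0.0315) and -0.14 (adjusted p = 0.632). The dose differences at 10 cGy, GM15036 minus GM15510, differed by -1.06 (SE 0.16, adjusted p = 4.58e-05). The fall at 10 cGy in GM15036 passed under all 13 other settings and with each of the 30 arrays left out in turn. One of these settings leaves out the 5 dimmest arrays and keeps a single array for GM15036 at 10 cGy and a single one for GM15510 at 2.5 cGy, each assumed to vary like the other groups. The fall at 7.5 cGy did not pass without GM15036 1 cGy replicate b or 7.5 cGy replicates b or c (highest adjusted p = 0.133), nor with brightness (-0.45, adjusted p = 0.121) or the ACTB ratio (-0.38, adjusted p = 0.151) as a covariate or without an intensity trend (-0.46, adjusted p = 0.0609). The rise in GM15510 did not pass without its 1 cGy replicates 1 or 2 or 10 cGy replicate 2 (highest adjusted p = 0.0609), nor with arrays centred on their medians, where it was as large (0.49, adjusted p = 0.194 unscaled, and 0.43, adjusted p = 0.0507 scaled).

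**Figure D1:**
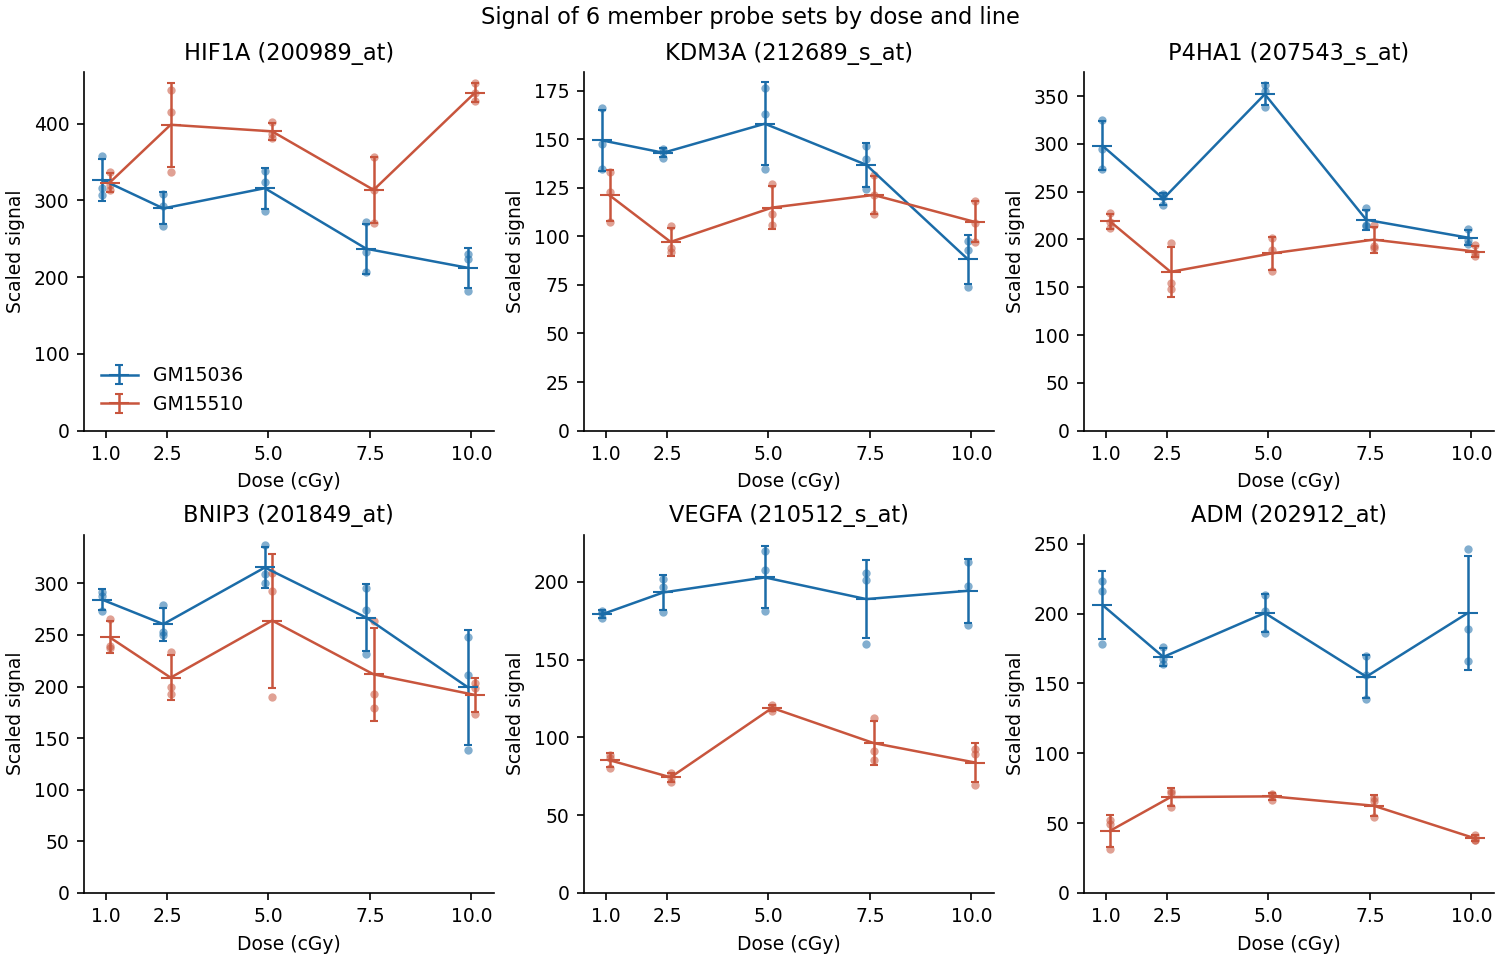
Scaled signal (vertical axis, from 0) against dose in cGy for 6 member probe sets, with GM15036 in blue and GM15510 in red. Points are single arrays and lines join group means with SD bars (n = 3). HIF1A averaged 212 in GM15036 and 441 in GM15510 at 10 cGy, while ADM and VEGFA lay higher in GM15036 at every dose.

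In the main scaling the partner and the regulators of HIF1A did not pass the test at any dose in either line. ARNT, the constant partner subunit (218221_at), ran from 18.7 to 44.6 over the 30 arrays, and its difference at 10 against 1 cGy in GM15036 was 0.38 with a 95% interval of -0.11 to 0.88. VHL (203844_at) was dim, from 2.88 to 20.6, with a difference of 0.78 (interval -0.025 to 1.58, adjusted p = 0.224). EGLN1, the prolyl hydroxylase (221497_x_at), had 28.8, 24.1 and 26.0 at 10 cGy in GM15036, against 44.1, 37.3 and 37.2 at 1 cGy. These 2 sets of arrays did not overlap, and the difference of -0.52 (adjusted p = 0.18) did not pass. It passed as lower with arrays centred on their medians, unscaled or scaled (lowest adjusted p = 0.00539). With unscaled arrays so centred EGLN1 also passed as lower at 2.5 cGy in GM15510 (adjusted p = 0.00396). The EGLN1 interval, -1.02 to -0.026, holds a fall of the size measured for HIF1A, while those of ARNT and VHL do not.

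KDM3A, which removes methyl groups from histones (212689_s_at), was lower at the highest dose of GM15036. The scaled signals there were 166, 147 and 135 at 1 cGy, 145, 140.5 and 143 at 2.5 cGy, 163, 176 and 135 at 5 cGy, 124, 146 and 139.9 at 7.5 cGy, and 74.0, 97.6 and 93.0 at 10 cGy. Each 10 cGy array was below every other array of the line, and the lower doses overlapped one another. In GM15510 the arrays had 133, 107 and 123 at 1 cGy, 94.0, 105 and 91.8 at 2.5 cGy, 106, 127 and 111 at 5 cGy, 111, 121 and 131 at 7.5 cGy, and 118, 107 and 97.0 at 10 cGy. KDM3A fell by 0.74 (SE 0.126, adjusted p = 0.000131) at 10 cGy in GM15036, and in GM15510 the difference was -0.17 (interval -0.42 to 0.091, adjusted p = 0.616). The gap between these differences was -0.57 (SE 0.178, adjusted p = 0.0405). The F test of KDM3A for a line by dose interaction, adjusted p = 0.00612, did not pass with brightness as a covariate or without the 5 dimmest arrays (highest 0.51). At 2.5 cGy in GM15510 KDM3A gave -0.30 (adjusted p = 0.133), and it passed as lower there with arrays centred on their medians, unscaled or scaled (lowest adjusted p = 0.000128). Its F test over the doses of GM15510 (adjusted p = 0.245) also passed under both centrings (lowest 0.000253). Of all tested probe sets, 3.73% had a lower difference at 10 cGy in GM15036. The fall in GM15036 passed under all 13 other settings and with each array left out.

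P4HA1, a catalytic subunit of the enzyme that hydroxylates collagen (207543_s_at), showed a dose pattern that was not steady. In GM15036 it had 325, 295 and 274 at 1 cGy, 236, 244 and 248 at 2.5 cGy, 339, 355 and 362 at 5 cGy, 215, 214 and 233 at 7.5 cGy, and 211, 196 and 199.5 at 10 cGy. The 5 cGy arrays were the highest of the line, the 1 cGy arrays came next, and the other 3 doses lay below both. In GM15510 it had 212, 218 and 227 at 1 cGy, 154, 196 and 148 at 2.5 cGy, 201, 167 and 189 at 5 cGy, 193, 215 and 191 at 7.5 cGy, and 183, 194 and 185 at 10 cGy. In that line the arrays at 2.5, 5 and 10 cGy were all under those at 1 cGy.

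P4HA1 fell by 0.55 (SE 0.0988, adjusted p = 0.000235) at 10 cGy and by 0.43 (adjusted p = 0.0109) at 7.5 cGy in GM15036. The differences of -0.29 at 2.5 cGy (adjusted p = 0.234) and 0.24 at 5 cGy (adjusted p = 0.482) did not pass, although their arrays did not overlap those at 1 cGy. In GM15510 it fell by 0.40 (adjusted p = 0.00792) at 2.5 cGy. The F test over the 5 doses of GM15036 gave an adjusted p of 1.83e-06. The fall at 10 cGy passed under all 13 other settings and with each array left out. The fall at 7.5 cGy did not pass without GM15036 1 cGy replicate a or 7.5 cGy replicate b (highest adjusted p = 0.0659), nor with brightness (-0.43, adjusted p = 0.0709) or the ACTB ratio (-0.40, adjusted p = 0.067) as a covariate, where the size changed little. The fall in GM15510 did not pass without 2.5 cGy replicate 3 (adjusted p = 0.0545) or with brightness (-0.42, adjusted p = 0.231).

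BNIP3, a mitochondrial protein that recruits the autophagy machinery (201849_at), had 211, 139 and 248 at 10 cGy in GM15036, against 288, 292 and 273 at 1 cGy. The 10 cGy arrays were the lower ones without overlap, but they spread more widely than those of the other doses of that line. In between it had 279, 253 and 249.7 at 2.5 cGy, 309, 337 and 300.0 at 5 cGy, and 295, 274 and 231 at 7.5 cGy. In GM15510 the scaled signals were 238, 239.6 and 266 at 1 cGy, 199.6, 193 and 233 at 2.5 cGy, 189.6, 309.9 and 292 at 5 cGy, 193, 264 and 179 at 7.5 cGy, and 203, 199 and 173 at 10 cGy. BNIP3 fell by 0.54 (SE 0.161, adjusted p = 0.0232) at 10 cGy in GM15036, and in GM15510 it passed at no dose, with -0.36 (adjusted p = 0.227) at 10 cGy. With array brightness as a covariate it did pass as lower at 10 cGy in GM15510 (adjusted p = 0.043). With unscaled arrays centred on their medians it passed as lower at 2.5 cGy in GM15510 (adjusted p = 0.00117). The second probe set, 201848_s_at, gave 0.18 (interval -0.36 to 0.73, adjusted p = 0.739) at 10 cGy in GM15036. The fall of 201849_at was -0.034 (adjusted p = 0.969) with array brightness as a covariate and -0.19 (adjusted p = 0.572) without the 5 dimmest arrays, where the single array kept at 10 cGy in GM15036 is assumed to vary like the other groups. Without 10 cGy replicate b, the dimmest array, it was -0.31 (adjusted p = 0.256), and it did not pass without 1 cGy replicates a or b either (highest adjusted p = 0.0764). With the ACTB ratio as a covariate BNIP3 gave -0.46 (adjusted p = 0.0933), and without an intensity trend its adjusted p was 0.0648.

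VEGFA, the main growth factor of blood vessels (210512_s_at), had 88.9, 86.5 and 80.5 at 1 cGy in GM15510, 77.4, 74.0 and 71.5 at 2.5 cGy, 119, 121 and 117 at 5 cGy, 85.1, 112 and 91.5 at 7.5 cGy, and 92.3, 89.5 and 69.7 at 10 cGy. The arrays at 5 cGy were above every other array of the line. VEGFA rose by 0.46 (SE 0.122, adjusted p = 0.0224) at 5 cGy in GM15510. In GM15036 it ran from 160.3 to 220.1 over the 15 arrays and passed at no dose, with 0.17 (interval -0.077 to 0.42) at 5 cGy. The other 2 tested sets, 210513_s_at and 212171_x_at, were dim, with highest scaled signals of 28.0 and 24.5, and passed at no dose. The rise of 210512_s_at did not pass without any 1 of the 3 arrays at 1 cGy or of replicates 1 and 2 at 5 cGy in GM15510 (highest adjusted p = 0.112), and with arrays centred on their medians it was 0.088 (adjusted p = 0.81). The VEGFA rise gave an adjusted p of 0.153 with the ACTB ratio as a covariate and 0.0609 without the 5 dimmest arrays.

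ADM encodes adrenomedullin, a peptide that widens blood vessels (202912_at). In GM15510 it had 49.1, 52.3 and 31.5 at 1 cGy, 71.5, 61.5 and 72.7 at 2.5 cGy, 70.3, 66.4 and 70.5 at 5 cGy, 65.4, 54.0 and 67.7 at 7.5 cGy, and 37.9, 41.5 and 37.5 at 10 cGy. The 3 middle doses lay above both ends of the range, and 1 of the 1 cGy arrays was lower than all other arrays. In GM15036 the arrays had 216, 178 and 223 at 1 cGy, 164, 167 and 176 at 2.5 cGy, 186, 202 and 213 at 5 cGy, 156, 139 and 169.6 at 7.5 cGy, and 166, 246 and 189 at 10 cGy. There the groups had their lowest means at 7.5 cGy (155 ± 15.5) and 2.5 cGy (169 ± 6.24, SD, n = 3 each), and both sets of arrays lay below those at 1 cGy.

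ADM rose in GM15510 by 0.61 (SE 0.149, adjusted p = 0.00712) at 2.5 cGy and by 0.63 (adjusted p = 0.0105) at 5 cGy, and the difference of 0.48 at 7.5 cGy (adjusted p = 0.0966) did not pass. At 10 cGy it was -0.14 (adjusted p = 0.764). In the main scaling no dose passed in GM15036, where the differences were -0.28 at 2.5 cGy (adjusted p = 0.597) and -0.40 at 7.5 cGy (adjusted p = 0.151). With unscaled arrays centred on their medians ADM passed as lower in GM15036 at 7.5 cGy (adjusted p = 0.0283) and at 10 cGy (adjusted p = 0.00476). Its F test over the doses of that line then passed too (adjusted p = 0.00622). The gap between the lines' differences was -0.89 (SE 0.211, adjusted p = 0.0141) at 2.5 cGy and -0.88 (adjusted p = 0.0125) at 7.5 cGy. Neither rise passed without GM15510 1 cGy replicate 3, where ADM gave 0.40 at 2.5 cGy (adjusted p = 0.102) and 0.42 at 5 cGy (adjusted p = 0.152). With arrays centred on their medians the difference at 2.5 cGy was 0.0023 (adjusted p = 0.995), and with brightness as a covariate it was 0.45 (adjusted p = 0.449). The ADM difference at 5 cGy was 0.29 (adjusted p = 0.297) under that centring and 0.54 (adjusted p = 0.132) with brightness. Nor did it pass with each line fitted alone or with the ACTB ratio as a covariate.

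MXI1, a partner of MAX that opposes MYC (202364_at), passed at no dose. Its arrays ran from 11.1 to 29.4 in GM15036 and from 19.5 to 43.5 in GM15510, and the difference at 10 against 1 cGy in GM15036 was 0.35 (interval -0.21 to 0.92).

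Counted over the 13 tested probe sets, 4 were lower and none higher at 10 against 1 cGy in GM15036, beside the shares given above. The median difference of the members was -0.052 and that of all tested probe sets 0.030. Arrays of the 2 doses did not overlap for 7 of the 13, against 26.9% of all tested probe sets. At 7.5 cGy in GM15036 the 2 lower probe sets, HIF1A and P4HA1, stood beside 3.22% of all tested probe sets, 1.95% as lower. At 2.5 and 5 cGy in that line limma called none (1 each at an unadjusted p under 0.05, and 0 under all 13 other settings), with 0.548% and 0.143% called over all probe sets. In GM15510, 1 was higher (ADM) and 1 lower (P4HA1) at 2.5 cGy, where 9.49% passed, 3.92% as higher and 5.57% as lower. At 5 cGy 2 were higher (VEGFA and ADM), where 4.19% passed, 2.08% as higher. At 10 cGy 1 was higher (HIF1A), where 5.91% passed, 3.09% as higher. At 7.5 cGy in GM15510 limma called none, with 1 at an unadjusted p under 0.05, 0 under all 13 other settings and 1.79% of all probe sets called.

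The fall of the 4 probe sets in GM15036 went with a fall in array brightness, given above. With brightness as a covariate HIF1A gave -0.59 (adjusted p = 0.0452), KDM3A -0.66 (adjusted p = 0.0452) and P4HA1 -0.56 (adjusted p = 0.0255), near the values without it, while BNIP3 201849_at gave -0.034 (adjusted p = 0.969) against -0.54 without it. The summed scaled signal of the 9 B cell markers was 2121 to 2290 (lowest and highest array) at 10 cGy and 1737 to 1769 at 1 cGy in GM15036, and its part in the result was not tested. The split of calls depended on the centring. Of the probe sets called at 10 cGy in GM15036, 37.4% were higher, against 1.78% when unscaled arrays were centred on their medians and 5.34% when scaled arrays were, settings that shifted the median of all tested probe sets by -0.41 and -0.23. At 2.5 cGy in GM15510 these shares were 41.3%, 1.46% and 4.74%, with shifts of -0.48 and -0.27, and at 5 cGy 49.6%, 2.34% and 12.9%, with shifts of -0.29 and -0.16. In GM15036 at 7.5 cGy they were 39.4%, 3.14% and 16.5%, with shifts of -0.19 and -0.074. In GM15510 at 10 cGy they were 52.3%, 76.1% and 53.8%, with shifts of 0.019 and -0.0094. HIF1A, KDM3A and P4HA1 passed as lower at 10 cGy in GM15036 under both centrings, with -1.24, -1.30 and -1.17 under the first of them, where the median of all tested probe sets was -0.38.

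**Figure D2:**
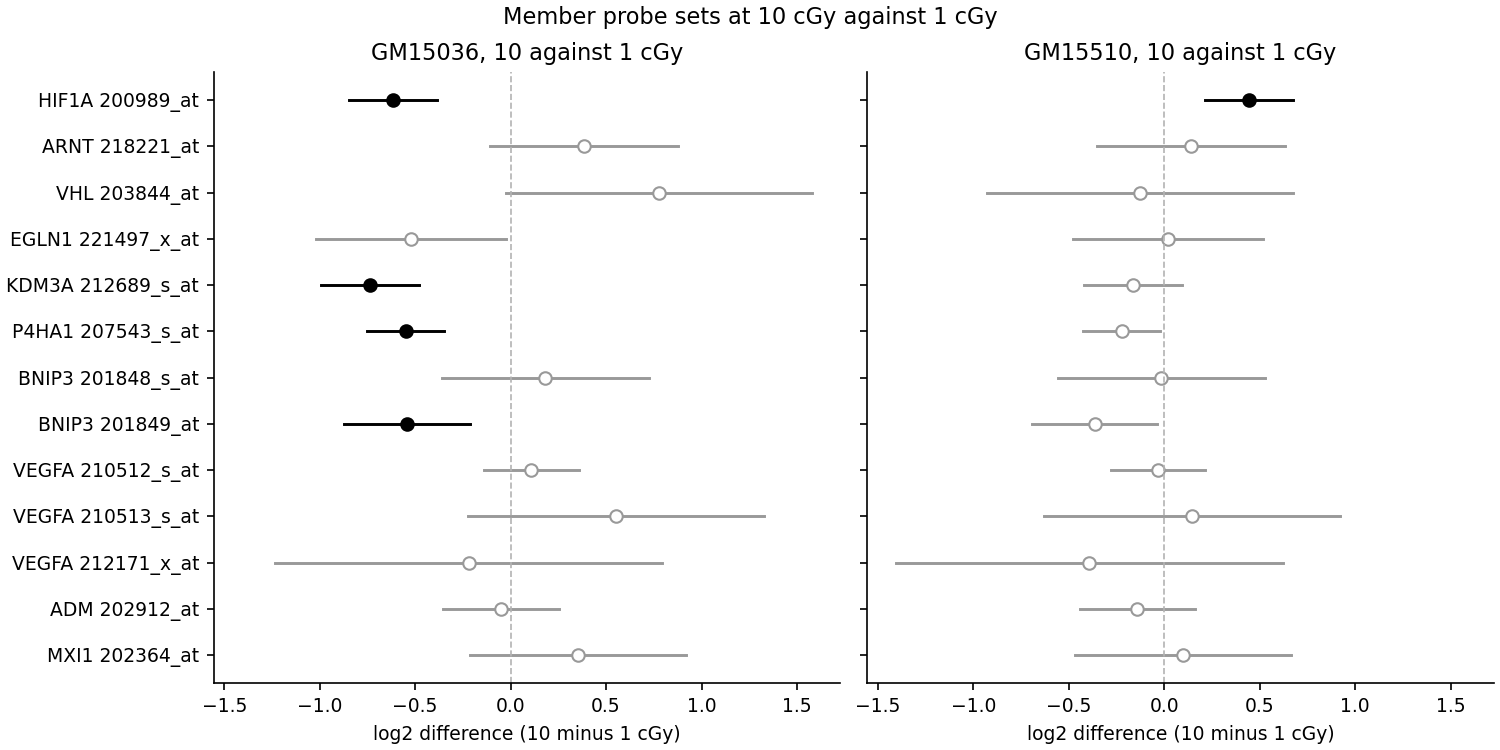
Log2 difference (10 minus 1 cGy, horizontal axis) of the 13 tested member probe sets in GM15036 on the left and GM15510 on the right, with 95% intervals of the limma fit. Filled black points passed at an adjusted p under 0.05 (4 in GM15036, all lower, and 1 in GM15510, higher) and open grey points did not.

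Across any pattern of dose, 4 of the 13 probe sets passed the F test in GM15036 (HIF1A, KDM3A, P4HA1 and BNIP3 201849_at), beside 16.2% of all tested probe sets. In GM15510 4 passed as well (HIF1A, P4HA1, VEGFA 210512_s_at and ADM), beside 21%. The F test of line by dose interaction, which asks whether the dose pattern differs between the lines, passed for 4 (HIF1A, KDM3A, P4HA1 and ADM), beside 20.5%. For P4HA1 no single dose carried the interaction past the threshold, and the widest gap was 0.48 (SE 0.14, adjusted p = 0.107) at 5 cGy. The F test of P4HA1 in GM15510 (adjusted p = 0.0315) did not pass under 5 other settings (highest 0.19) or without any 1 of the 3 arrays at 1 cGy or of replicates 1 and 3 at 2.5 cGy. That of BNIP3 in GM15036 (adjusted p = 0.0226) did not pass under 3 settings (highest 0.35) or without 5 cGy replicate b or 10 cGy replicate b (highest 0.242). The F test of ADM in GM15510 gave an adjusted p of 0.000177, and 0.0591 with unscaled arrays centred on their medians, and that of VEGFA 210512_s_at gave 0.00162.

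The level of many members differed between the lines, averaged over the 5 doses. ADM was higher in GM15036, from 139 to 246 with a median of 178, against 31.5 to 72.7 with a median of 61.5 in GM15510. No array of GM15036 overlapped one of GM15510, and the difference, GM15036 minus GM15510, was 1.67 in log2 (SE 0.0666, adjusted p = 3.45e-20). A higher line difference was found for 0.27% of the tested probe sets. VEGFA 210512_s_at was likewise higher in GM15036, from 160.3 to 220.1 with a median of 197, against 69.7 to 121 with a median of 88.9 in GM15510. These arrays did not overlap either, with a difference of 1.05 (SE 0.0544, adjusted p = 4.45e-17), and 1.33% of the tested probe sets had a higher one. The dimmer VEGFA sets gave 0.008 (interval -0.34 to 0.35) for 210513_s_at and 0.32 (interval -0.13 to 0.78) for 212171_x_at, so the line difference of VEGFA rests on 1 probe set.

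P4HA1 was higher in GM15036 by 0.43 (SE 0.0442, adjusted p = 7.21e-10), KDM3A by 0.23 (adjusted p = 0.000839) and BNIP3 201849_at by 0.23 (adjusted p = 0.00832), with overlapping arrays. Under median centring of unscaled arrays KDM3A gave 0.096 (adjusted p = 0.404) and BNIP3 0.092 (adjusted p = 0.526), and neither passed under centring of scaled arrays. HIF1A went the other way, at -0.44 (SE 0.0506, adjusted p = 8.04e-09), with a median of 286 in GM15036 and 382 in GM15510. At 1 cGy the lines had nearly the same HIF1A signal, 327 ± 27.6 in GM15036 and 323 ± 11.8 in GM15510 (SD, n = 3 each), with overlapping arrays. EGLN1 and MXI1 were also lower in GM15036, with differences of -0.37 (adjusted p = 0.00491, and 0.166 with the ACTB ratio as a covariate) and -0.56 (SE 0.124, adjusted p = 0.000313). In all, 8 of 13 probe sets passed, 5 higher and 3 lower in GM15036, beside 47.2% of all tested probe sets, 26.7% higher and 20.5% lower. Arrays of the lines did not overlap for 2 of the 13, against 3.48% of all tested probe sets. VHL gave 0.37 (interval 0.017 to 0.73, adjusted p = 0.0799) and ARNT 218221_at 0.0070 (interval -0.21 to 0.23). Of all probe sets called between the lines, 56.6% were higher in GM15036, against 35.1% and 38.1% under the centrings of unscaled and scaled arrays, where the members split into 3 higher and 3 lower.

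**Figure D3:**
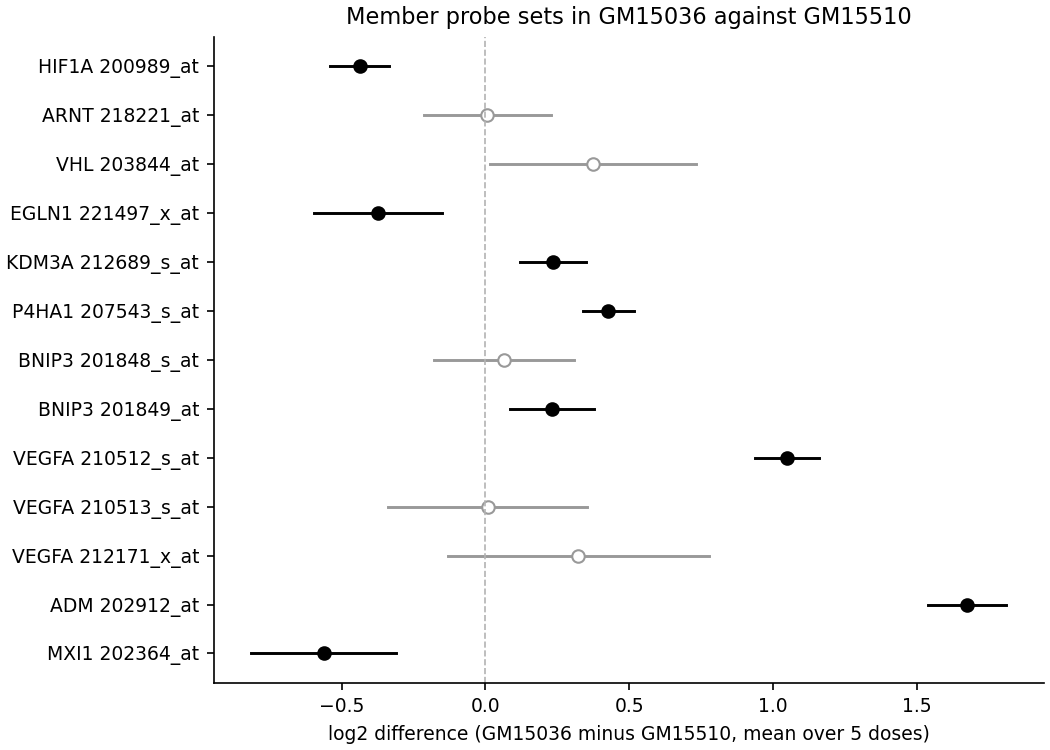
Log2 difference between the lines (GM15036 minus GM15510, mean over 5 doses, horizontal axis) of the 13 tested member probe sets, with 95% intervals of the limma fit. Filled black points passed (8) and open grey points did not, with ADM at 1.67 and VEGFA 210512_s_at at 1.05 farthest to the right and MXI1 at -0.56 farthest to the left.

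Genes of the pathway outside the members were counted in 3 lists with 1 probe set a gene. Of 16 genes of the HIF machinery (other subunits, hydroxylases, ligase parts and coactivators) 10 were tested. None passed at any dose in GM15036 (2 at an unadjusted p under 0.05 at 10 cGy). In GM15510 3 were lower at 2.5 cGy, beside 5.57% over all tested probe sets. Under median centring of unscaled arrays 5 of the 10 were lower, beside 5618 of the 13331 tested probe sets. The 3 of the main scaling were the coactivator CREBBP (-0.72, adjusted p = 0.000429), the ubiquitin ligase SIAH1 (-0.58, adjusted p = 0.0245) and the ligase subunit ELOC (-0.80, adjusted p = 0.0438). Other probe sets of SIAH1 (-0.010) and ELOC (-0.054) did not pass. With brightness as a covariate CREBBP did not pass either (-0.55, adjusted p = 0.229). Of the 30 arrays left out in turn, 4 took the call of SIAH1 at 2.5 cGy (highest adjusted p = 0.146) and 6 that of ELOC (highest 0.237), mostly arrays of GM15510 at 1 and 2.5 cGy. The median difference of the list at 10 cGy in GM15036 was 0.057, against 0.030 over all tested probe sets.

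The glycolytic HIF targets had 16 tested genes of 21. At 10 cGy in GM15036, 5 were lower and none higher, beside 7.35% lower over all tested probe sets, with a median difference of -0.21 against 0.030 over all tested probe sets. Under median centring of unscaled arrays 11 of the 16 were lower, beside 4251 of the 13331 tested probe sets. ENO1, which encodes an enolase, had 403, 544 and 473 at 10 cGy and 856, 835 and 966 at 1 cGy, and it fell by 0.91 (SE 0.0919, adjusted p = 6.38e-08). GPI, which converts glucose phosphate to fructose phosphate, fell by 0.52 (adjusted p = 0.000485), and PGK1, which makes ATP in glycolysis, by 0.46 (adjusted p = 0.00479). Of the 3 other PGK1 probe sets 2 were also lower past the threshold, -0.71 and -0.81. In GM15510 ENO1 had 948, 988 and 1010.3 at 10 cGy against 739, 766 and 788 at 1 cGy, higher by 0.36 (SE 0.0919, adjusted p = 0.0132). At 2.5 cGy in GM15510 4 of the 16 were higher, beside 3.92% over all tested probe sets, among them PGAM1 (0.52), LDHA (0.47) and ENO1 (0.36), while the list's median was -0.073. Under median centring of unscaled arrays 12 of the 16 were lower and none higher, beside 5618 lower and 83 higher of the 13331 tested. PGAM1, LDHA and ENO1 turned to -0.26, -0.31 and -0.41 under it. The second ENO1 probe set gave -0.30 (adjusted p = 0.68) in the main scaling. The ENO1 call at 10 cGy in GM15510 was lost without 1 cGy replicate 1 or 10 cGy replicate 3 (highest adjusted p = 0.0684). It was also lost under median centring of unscaled arrays, with the ACTB ratio as a covariate and without an intensity trend (highest adjusted p = 0.206). At 10 cGy the second ENO1 probe set passed in neither line, with -0.68 (adjusted p = 0.259) in GM15036 and 0.21 (adjusted p = 0.883) in GM15510.

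Hypoxia targets outside glycolysis had 25 tested genes of 34. At 10 cGy in GM15036, 2 were lower and none higher, beside 7.35% lower over all tested probe sets. They were INSIG2, which restrains sterol synthesis (-0.71, adjusted p = 0.00519), and GBE1, the glycogen branching enzyme (-0.35, adjusted p = 0.0315). Under median centring of unscaled arrays 12 of the 25 were lower, beside 4251 of the 13331 tested probe sets. With brightness as a covariate INSIG2 was no smaller in size but did not pass (-0.87, adjusted p = 0.0588), while GBE1 gave -0.15 (adjusted p = 0.731), and GBE1 did not pass without 1 cGy replicates a or b or 10 cGy replicate b. In GM15510 2 were higher and 3 lower at 2.5 cGy, beside 3.92% higher and 5.57% lower over all tested probe sets. Under that centring 1 was higher and 14 lower, beside 83 higher and 5618 lower of the 13331 tested. The transferrin receptor TFRC (208691_at) was higher by 0.69 (adjusted p = 0.000152) and gave -0.087 under that centring, while its set 207332_s_at gave -0.083. Among the 3 lower were GBE1 (-0.42, adjusted p = 0.0127) and CXCR4 217028_at (-0.52, adjusted p = 0.0185), and neither passed with brightness as a covariate. The CXCR4 set 209201_x_at gave 0.32 (adjusted p = 0.686). At 10 cGy in GM15510 1 of the 25 was higher and 1 lower, beside 412 higher and 376 lower of the 13331 tested. The lower one, HIGD1A 217845_x_at, gave -0.30 (adjusted p = 0.0305) and passed under 7 of 13 other settings. Its set 221896_s_at gave -0.44 (adjusted p = 0.0211). The higher one, the stress-induced mTOR inhibitor DDIT4, had 414, 406 and 384 at 10 cGy, against 269.6, 289 and 278 at 1 cGy. It was higher by 0.52 (SE 0.0945, adjusted p = 0.000478). Under that centring the DDIT4 difference was as large (0.56) but did not pass (adjusted p = 0.156). Between the lines 9 of the 25 were higher in GM15036 and 3 lower, with CXCR4, a chemokine receptor (1.44, adjusted p = 8.62e-19), BHLHE40, a transcriptional repressor (1.04, adjusted p = 4.22e-11), and DDIT4 (0.88, adjusted p = 5.66e-18) among the higher. In the machinery the split was 5 higher and 3 lower of 10, and among the glycolytic genes 6 higher and 5 lower of 16, beside 26.7% higher and 20.5% lower over all tested probe sets. Under median centring of unscaled arrays the splits were 7 higher and 6 lower for the targets outside glycolysis, 2 and 4 for the machinery, and 3 and 6 for the glycolytic genes. Over all 13331 tested probe sets that split was 1971 higher and 3639 lower.

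The group means, centred within each line, were compared across probe sets over the 10 groups as a description. Points within a line share arrays with those of every other gene, so their brightness is shared too. Among the members only the 6 probe sets called at some dose were compared with one another. KDM3A followed BNIP3 201849_at (Pearson's r = 0.84) and P4HA1 (0.78) most closely of these, and P4HA1 and BNIP3 had 0.73. All 3 were called lower at 10 cGy in GM15036 from these same arrays, so part of this likeness follows from the choice. HIF1A had 0.46 with KDM3A, 0.47 with P4HA1 and 0.42 with BNIP3, and ADM stood apart from these 3 targets (-0.11 with KDM3A and 0.15 with BNIP3). Over all tested probe sets with 1 symbol, the pattern most like that of HIF1A was FARS2 (0.95), that of KDM3A was CIAPIN1 (0.98), that of P4HA1 was JMJD1C (0.98), that of BNIP3 was ME2 (0.94), that of VEGFA was KLK8 (0.93) and that of ADM was SLC6A8 (0.98).

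**Figure D4:**
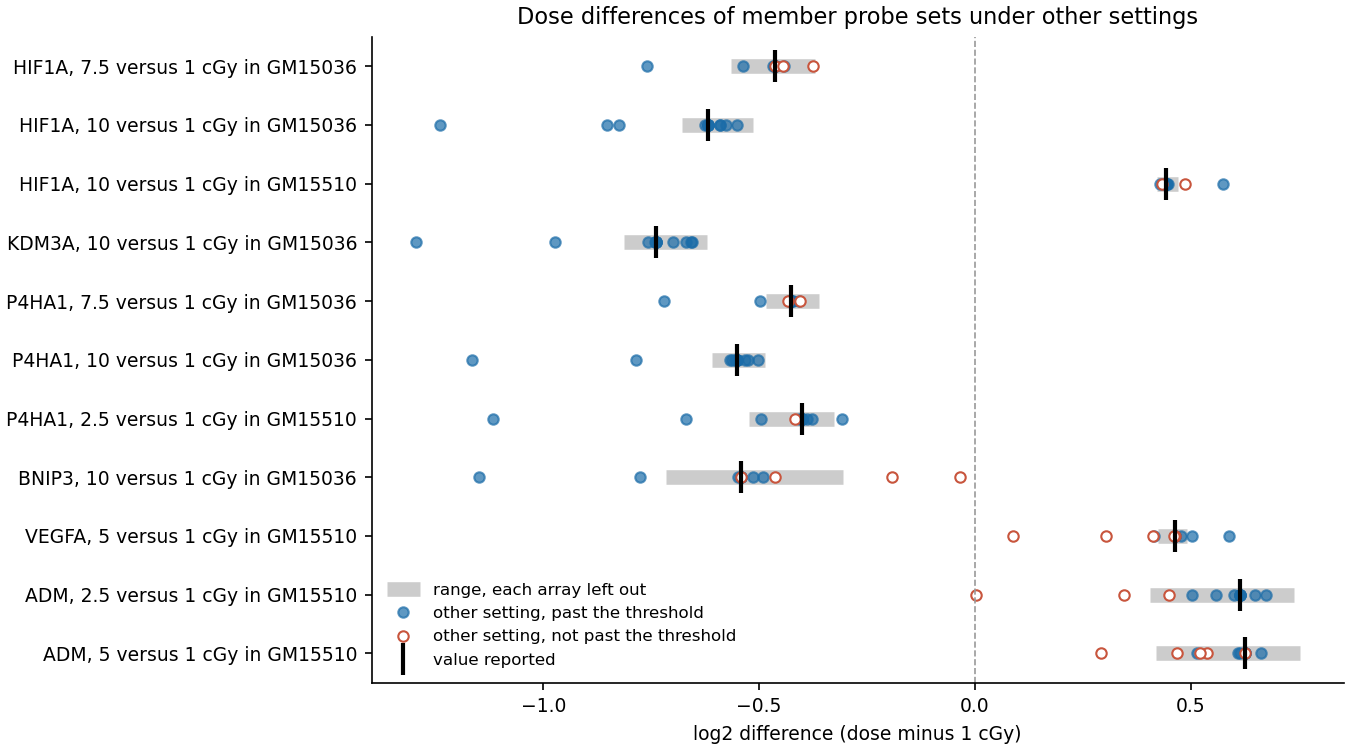
Log2 difference (dose minus 1 cGy, horizontal axis) of the 11 dose differences of members that passed, each shown as a black bar, with 13 other processing settings as points (blue filled where the adjusted p stayed under 0.05, red open where it did not) and the range over 30 left-out arrays in grey. At 10 cGy in GM15036 HIF1A, KDM3A and P4HA1 have only blue points, while for BNIP3 the points reach -0.034.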

How the data were processed

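The values are signal intensities on a linear scale, deposited by the authors for 30 arrays and made with MAS5, per the submitters' processing notes; its version, scaling target and background settings are not given there. The labels' protocols name Qiagen total RNA extraction and biotin labelling. The trimmed means (2 to 98 percent) of the deposited arrays ran from 14.1 to 112, a ratio of 7.91, so each array was scaled to their mean, 50.9. After adding 4 and taking log2, control probe sets and those below the 40th percentile of mean log2 (scaled signal about 8.47) were left out, leaving 13331. limma 3.58.1 in R 4.3.3 (lmFit on 10 groups, eBayes with an intensity trend, 20 residual and 12.3 prior degrees of freedom, two-sided, Benjamini-Hochberg) gave every p, and the script was tested on simulated data. Symbols came from the platform annotation, updated through gene IDs with RefSeq (GRCh38.p14), which matched 19059 of 19071 probe sets with 1 symbol; 1043 had several and 2169 none. All members are given whatever their test. Other pathway genes are some of the leading ones of each list past the threshold, and not every call of a list is named. The members, lists and rules were chosen with earlier results of these data known, and the ACTB covariate and the removal of the 5 dimmest arrays were added after seeing the data.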

Additional observations from a re-analysis of the deposited data

Results flagged for a closer look

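For 4 of the 13 tested member probe sets the dose pattern differed between the lines by the F test of line by dose interaction, beside 20.5% of all tested probe sets. HIF1A 200989_at had an adjusted p of 0.000165, with a difference at 10 against 1 cGy of -0.62 in GM15036 and 0.44 in GM15510. KDM3A 212689_s_at had 0.00612, with -0.74 in GM15036 and -0.17 in GM15510 at 10 cGy, and its interaction did not pass with brightness as a covariate (adjusted p = 0.51) or without the 5 dimmest arrays. P4HA1 207543_s_at had 0.000217, with 0.24 in GM15036 and -0.24 in GM15510 at 5 cGy. ADM 202912_at had 0.000366, with -0.40 in GM15036 and 0.48 in GM15510 at 7.5 cGy.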

How the results depend on the processing

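The 12 counts of member probe sets were recomputed under 13 other settings and with each of the 30 arrays left out. At 7.5 cGy in GM15036 the count of 2 (429 over all 13331 probe sets tested) became 1 with eBayes without a trend (230 over all). It became 0 with brightness (134 over all) or the ACTB ratio (167 over all) as a covariate. At 2.5 cGy in GM15510 the count of 2 (1265 over all) became 6 with median centring, where 5701 were called over all. It became 0 with brightness (115 over all). At 5 cGy in GM15510 the count of 2 became 1 with median centring, centring after scaling, brightness or the 5 dimmest arrays left out, and 0 with each line fitted alone or the ACTB ratio. Over all probe sets tested, the calls at 5 cGy in GM15510 were 559 as reported. They were 1967 with median centring, 798 with centring after scaling, 222 with brightness, 394 with each line fitted alone and 272 with the ACTB ratio. At 10 cGy in GM15510 the count of 1 (788 over all) became 0 with median centring (184 over all) or centring after scaling (470 over all). It became 2 with brightness (903 over all), with BNIP3 201849_at added. The interaction count of 4 (2738 over all) became 7 with median centring (5880 over all). Each array left out in turn gave 0 to 2 at 7.5 cGy in GM15036 (185 to 498 over all). In GM15510 it gave 1 to 3 at 2.5 cGy (734 to 1336 over all), 0 to 2 at 5 cGy (285 to 605) and 0 to 1 at 10 cGy (478 to 860). All other counts stayed within 1.5 times of the reported one under these settings. Replicate labels do not pair the arrays (Pearson's r of same-labelled deviations from -0.055 to 0.041 in GM15036 and from -0.062 to 0.097 in GM15510, with 5 and 6 of 15 arrays closest to their own label), and the replicate block left the counts at 0, 0, 2 and 4 for the doses of GM15036, 2, 2, 0 and 1 for those of GM15510, 8 between the lines, and 4 for each F test. Of 809 values of the 19 passing differences of members, 760 still passed and 49 did not, with none reversed. Most of these values come from leaving out 1 array, often one outside the groups compared, so many could hardly change. Only 8 of the 19 differences passed in every fit, and 11 of 29 differences of other genes. Among these 29, 4 values reversed, all at 2.5 cGy in GM15510 under median centring, namely TFRC (-0.087), ENO1 (-0.41), PGAM1 (-0.26) and LDHA (-0.31). The causes were not tested. Dim probe sets such as those of VHL and VEGFA 212171_x_at leave wide intervals.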
